A study of Homo sapiens with 16 samples.

Results

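The comparison set U-937 cells treated with Corin directly against U-937 cells treated with all-trans retinoic acid (ATRA), across all genes and without the control libraries in the test. Its members were 4 of the 16 RNA-seq libraries of the study, taken by their labels: 2 of U-937 with ATRA alone and 2 of U-937 with Corin alone. The study measured total RNA in 2 human cell lines that its labels call AML (acute myeloid leukaemia) lines, U-937 and SKNO-1, with DMSO (the solvent), ATRA, Corin or both agents, in 2 libraries per group. U-937 is an established line of monocytic character. In the libraries compared, ATRA or Corin was given at 0.1 µM for 24 h to unmodified cells grown in serum-containing medium. By these labels the groups differed only in the agent. A batch that went with the agent could not be told apart from it. Libraries of U-937 with DMSO and with both agents for the same 24 h did not enter the main test. They entered its scaling factors, which came from all 8 U-937 libraries, and an alternative fit. Otherwise they were used as levels set beside those of the 4 libraries. Nothing in the labels says that replicates came from separate cultures, so p-values measure only the spread between these libraries, which may be technical. These are bulk libraries, in which fewer cells of a type and less RNA per cell cannot be told apart.

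ATRA is the active acid form of vitamin A. It binds retinoic acid receptors (RARA, RARB, RARG), which sit on DNA as heterodimers with RXR proteins, hold corepressors such as NCOR1 when no ligand is bound, and exchange them for coactivators when ATRA binds. In myeloid leukaemia cells ATRA is known as a differentiating agent. CoREST is a different repressor complex, in which the scaffold RCOR1 joins the lysine demethylase KDM1A (LSD1) to the histone deacetylases HDAC1 and HDAC2 and is brought to genes by factors such as REST and GFI1. Corin is a synthetic hybrid molecule that inhibits both enzyme activities of CoREST. The head-to-head contrast therefore sets a receptor ligand against an inhibitor of a corepressor complex in the same cells.

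Library totals lay between 28414479 and 37563237 estimated counts over the 4 libraries. HOXA9 and HOXA10, which mark this line, were present in all 4, and RUNX1T1, which marks SKNO-1 through its fusion gene, had 0 counts in all 4. All 4 epithelial markers were at 0 counts. The summed level of 5 T cell markers lay between 0.25 and 0.39 CPM (counts scaled to a common library total) with ATRA and between 0.85 and 1.12 CPM with Corin, and that of 5 B cell markers between 7.77 and 9.12 CPM and between 10.98 and 11.6 CPM. Among 5 eosinophil and mast cell markers, of which 2 were at 0 in all 4 libraries, the sum lay between 10.5 and 12.2 CPM with ATRA and between 34.1 and 37.6 CPM with Corin. Nearly all of that sum was 1 gene, TPSAB1, at 10.3 and 12.01 CPM with ATRA and 37.2 and 33.7 CPM with Corin. The part of these marker levels in the results was not tested.

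Corin and ATRA gave widely different expression profiles. Of 60603 genes in the table, 16807 had enough counts to be tested, and 7232 of these (43%) differed between the agents in edgeR's quasi-likelihood test at a Benjamini-Hochberg adjusted p under 0.05. Throughout, a difference is Corin minus ATRA on the log2 scale, so that positive values mean more RNA with Corin. Of the calls, 3633 genes were higher with Corin (21.6% of those tested) and 3599 higher with ATRA (21.4%), and the median difference of all genes tested was -0.00. The split depends on the centring: it was 3834 and 3334 with scaling factors from the 4 libraries alone, and 4179 and 2908 with library totals alone, where the median was 0.08. Differences of at least 1 (2-fold) were called for 1179 genes higher with Corin (7.01%) and for 986 higher with ATRA (5.87%). With 2 libraries a side, both libraries of one agent lay above both of the other for 11945 genes (71.1%), so separation of the 4 points alone says little about a gene.

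**Figure D1:**
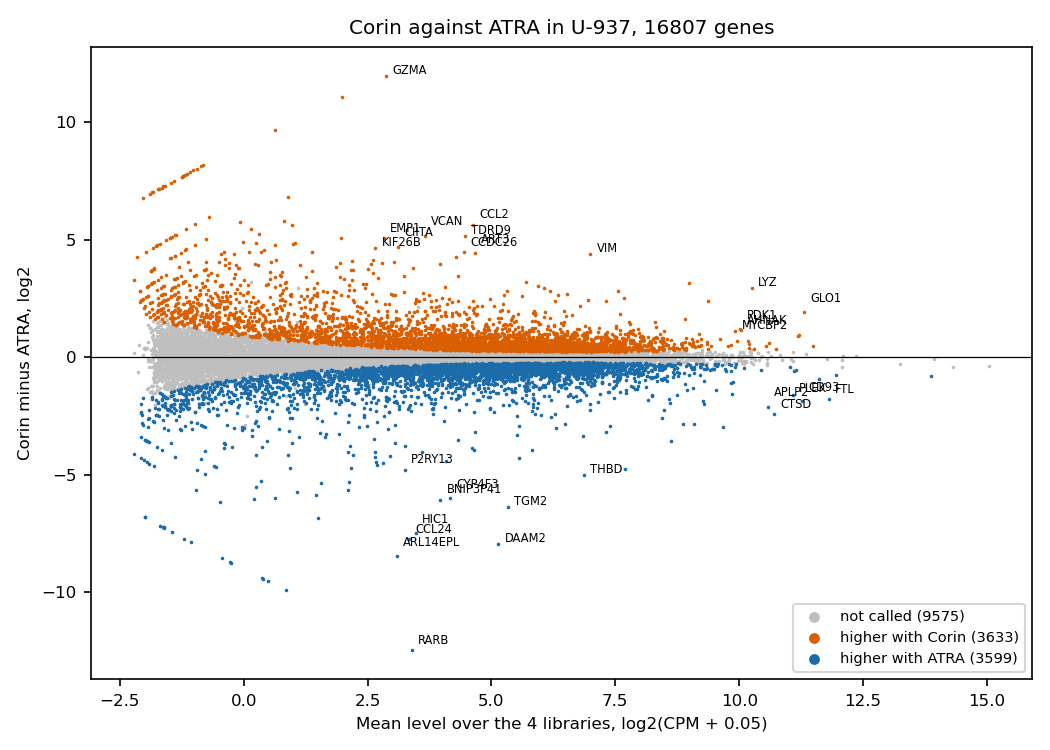
Each point is 1 of the 16807 genes tested, at its mean level over the 4 U-937 libraries (x axis, log2 of CPM + 0.05) and its log2 difference, Corin minus ATRA (y axis). Orange points were higher with Corin (3633) and blue points higher with ATRA (3599); genes named for the size of their difference or for their abundance are labelled.

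The DMSO libraries placed the 2 sets of genes differently, as a description on the scale of log2(CPM + 0.5). For the 986 genes higher with ATRA by at least 1, the median level with Corin minus that with DMSO was -0.00 and the median with ATRA minus DMSO was 1.12, and the DMSO level lay nearer to Corin for 899 of them. For the 1179 genes higher with Corin by at least 1, Corin stood above DMSO by a median of 0.37 while ATRA stood at -0.76 from it. DMSO lay nearer to the Corin level for 739 of these and nearer to the ATRA level for 440. The genes higher with Corin were thus a mixture of genes lower with ATRA than with DMSO and genes higher with Corin than with DMSO.

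Among the genes with the largest differences was RARB, the gene of retinoic acid receptor beta and a known target of its own receptor family (ENSG00000077092.19, hg38 chromosome 3, 24687887 to 25597932). RARB stood at 21.1 and 20.5 CPM with ATRA and had 0 counts in both Corin libraries and in both DMSO libraries. Set against a floor of 3 counts over the Corin group, its level was at least 474-fold higher with ATRA (adjusted p = 3.85e-11, edgeR's quasi-likelihood test). With both agents it stood at 24.0 and 31.0 CPM. The promoter of RARB is shown because RARB had counts with ATRA and 0 with Corin and because the receptor's binding sequence is well defined. In the RefSeq promoter of RARB (GRCh38.p14, plus strand, chr3:25428013-25428262, the 250 bases before the start that RefSeq's table gives, which lies inside the longer span given above), capitals mark a pair of retinoid half-sites (each AGGTCA or AGTTCA or GGGTCA or GGTTCA) in direct repeat with 5 bases between them, spacer included.
RARB: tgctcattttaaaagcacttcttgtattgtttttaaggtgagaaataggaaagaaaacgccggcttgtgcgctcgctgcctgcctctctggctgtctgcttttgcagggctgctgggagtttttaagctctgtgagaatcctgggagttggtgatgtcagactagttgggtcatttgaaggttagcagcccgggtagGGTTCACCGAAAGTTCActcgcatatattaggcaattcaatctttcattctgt
The match began 53 bases before the start. Searched on both strands, this repeat was found in 19 of 27305 promoters of that length (0.0696%) and in 5 of the 10331 matched to tested genes (0.0484%). It was found in 2 of the 564 matched to genes higher with ATRA by at least 1 (0.355%, RARB and BATF2). It was found in 0 of the 675 matched to genes higher with Corin by at least 1. RARB was chosen for its counts and both of its half-sites are among those searched, so its own match is no independent result. The same half-sites with 2 bases between them were found in 10 promoters and in 0 of either set. A match is a description of the letters in this window only.

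The other 9 genes completed the ATRA side of the largest differences. DAAM2, a formin that organises actin, stood at 72.2 and 68.0 CPM with ATRA against 0.27 and 0.29 CPM with Corin, a difference of -7.96 (SE 0.17, adjusted p = 7.26e-13). TGM2, the tissue transglutaminase that cross-links proteins, stood at 80.3 and 78.3 CPM against 0.90 and 1.01 CPM, a difference of -6.37 (SE 0.14, adjusted p = 7.26e-13). In both genes DMSO was at or below 0.07 CPM. HIC1, a zinc finger transcriptional repressor, stood at 20.4 and 23.5 CPM with ATRA and at 0.11 and 0.13 CPM with Corin (difference -7.50, SE 0.25). The chemokine gene CCL24 stood at 18.5 and 21.3 CPM against 0.08 and 0.10 CPM (difference -7.76, SE 0.26). THBD, thrombomodulin, which turns thrombin into an anticoagulant, was the most abundant of these genes at 233 and 219 CPM with ATRA against 6.46 and 7.64 CPM with Corin (difference -5.01, SE 0.12). THBD with Corin stood close to its DMSO level of 5.91 and 6.04 CPM. CYP4F3, an enzyme that inactivates leukotriene B4, had a difference of -6.01 (SE 0.17), and P2RY13, a receptor for ADP, one of -4.79 (SE 0.21). ARL14EPL had 3 counts in the Corin libraries together and 1172 with ATRA, and the ratio of the levels was 385 (95% counting interval, 131 to 1870). BNIP3P41, a pseudogene with a difference of -6.07 (SE 0.20), is uncertain, since reads can be shared with its parent gene and other copies.

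On the Corin side, GZMA, the gene of granzyme A, a protease of cytotoxic lymphocytes, stood at 16.6 and 12.6 CPM with Corin and had 0 counts in both ATRA libraries. Its level was at least 342-fold higher with Corin against the floor of 3 counts over the group (adjusted p = 5.32e-10, edgeR's quasi-likelihood test). CCL2, the chemokine that attracts monocytes, stood at 49.7 and 46.6 CPM with Corin and at 0.91 and 1.03 CPM with ATRA, a difference of 5.63 (SE 0.15, adjusted p = 3.71e-12). Separation of the agents was required of every gene named by size and is no further result. CCL2 was also present with DMSO, at 3.29 and 6.04 CPM, between the agents. VIM, the intermediate filament protein vimentin, was the most abundant gene of this group. It stood at 230 and 256 CPM with Corin, at 10.2 and 13.3 CPM with ATRA and at 96.0 and 98.1 CPM with DMSO (difference 4.37, SE 0.13). VCAN, a matrix proteoglycan, stood at 25.1 and 23.8 CPM with Corin against 0.74 and 0.61 CPM with ATRA (difference 5.17, SE 0.18). CIITA, the coactivator that switches on MHC class II genes, stood at 16.5 and 16.6 CPM against 0.80 and 0.46 CPM (difference 4.70, SE 0.21). TDRD9 (5.15, SE 0.15), EMP1 (5.07, SE 0.22), KIF26B (4.65, SE 0.26), ART3 (4.43, SE 0.14) and the long non-coding RNA CCDC26 (4.48, SE 0.15) completed the group. DMSO libraries lay between the 2 agents for all 10 of these genes, as for GZMA at 0.06 and 0.34 CPM.

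**Figure D2:**
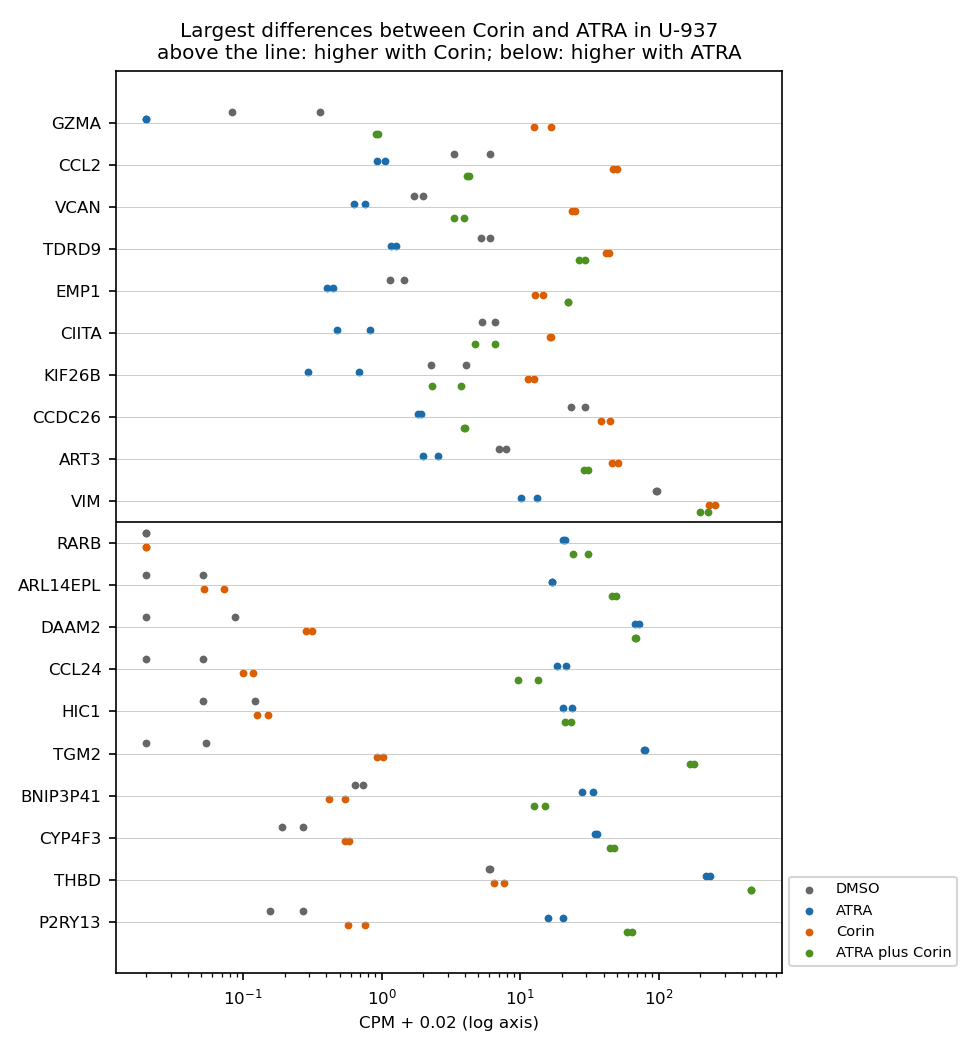
Level of the 20 genes with the largest differences in each of the 8 U-937 libraries (x axis, CPM + 0.02 on a log axis), 1 point per library, with colours for DMSO, ATRA, Corin and both agents. The 10 genes above the line have both Corin points to the right of both ATRA points, and the 10 below it the reverse. The rule that named these genes required this separation. RARB sits at 0 counts with DMSO and with Corin.

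Among abundant genes with a difference of at least 1, the differences were smaller. LYZ, lysozyme, stood at 2348 and 1960 CPM with Corin against 285 and 278 CPM with ATRA (difference 2.94, SE 0.13), with DMSO at 216 and 244 CPM, so that ATRA and DMSO were near each other and Corin stood apart. GLO1, the glyoxalase that removes methylglyoxal, stood at 4308 and 3703 CPM with Corin against 1041 and 1085 CPM with ATRA (difference 1.91, SE 0.14), with DMSO at 2631 and 2894 CPM. AHNAK, PDK1 and MYCBP2 had differences of 1.14, 1.18 and 1.12 (SE 0.12, 0.11 and 0.11). On the ATRA side, CTSD, the lysosomal protease cathepsin D, stood at 2631 and 3007 CPM against 552 and 498 CPM with Corin (difference -2.42, SE 0.13). FTL, the ferritin light chain that stores iron, stood at 5226 and 5871 CPM against 1731 and 1466 CPM (difference -1.79, SE 0.15). CD93, a surface glycoprotein of myeloid cells, had a difference of -1.87 (SE 0.13), APLP2 one of -2.11 (SE 0.13) and the platelet and leukocyte protein PLEK one of -1.59 (SE 0.14). For CD93, PLEK and FTL the Corin libraries stood closer to the DMSO libraries than the ATRA libraries did.

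Gene groups were read through 25 lists with 491 entries, of which 489 were in the table and 402 were tested. The 267 called entries, which are 265 genes because CDKN1A and TUBB3 stand in 2 lists each, are read against the 43% of all genes called, and each list's median against the median of -0.00 over all genes. Among protein-coding genes alone, 6242 of 12488 tested were called, a higher share than that 43%. For list members that code for proteins this is the closer yardstick.

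**Figure D3:**
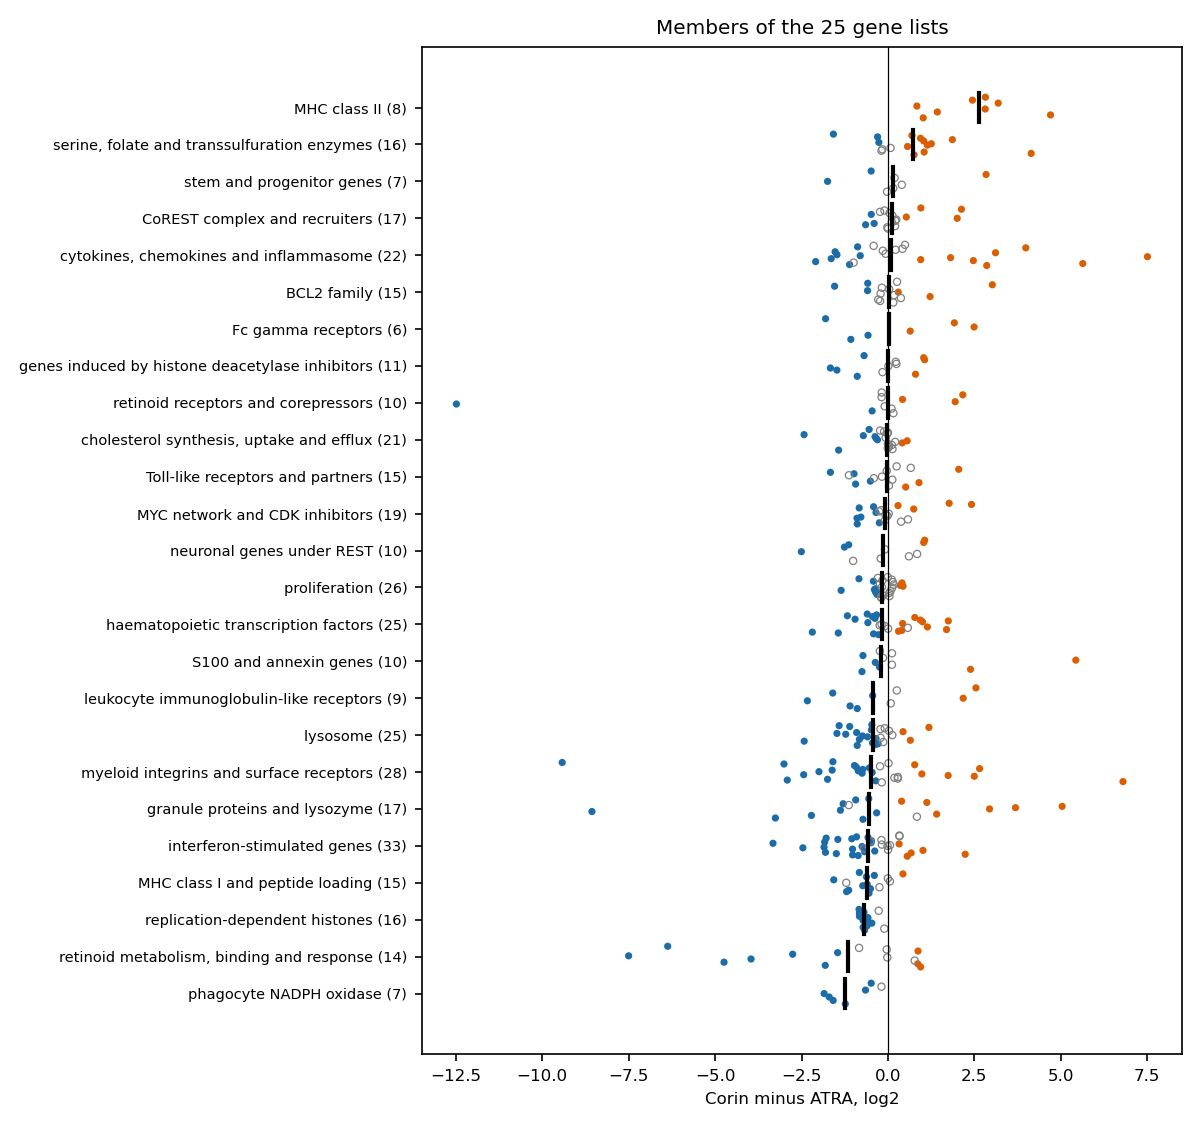
Log2 difference, Corin minus ATRA (x axis), of the tested members of each of the 25 lists (number tested in parentheses). Filled points were called (orange higher with Corin, blue higher with ATRA), open points were not, and black bars are list medians, from -1.24 for the phagocyte NADPH oxidase to 2.63 for MHC class II. Members with a group at 0 counts, such as RARB at the far left, stand at their fitted value, which is no bound.

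Retinoid genes were divided by role. Of 12 receptors and corepressors, 10 were tested, 3 were higher with Corin and 2 with ATRA, and the median was 0.00. Beside RARB, the other 2 receptors differed from it: RARG stood at 2.59 and 2.79 CPM with ATRA against 9.68 and 11.03 CPM with Corin (difference 1.94, SE 0.17), while RARA stood at 11.1 and 12.9 CPM against 10.6 and 11.8 CPM and was not called. DMSO lay between the agents for RARG, at 5.32 and 6.82 CPM. TBL1X, a subunit of the NCOR corepressor complexes, stood at 9.78 and 9.37 CPM with ATRA against 38.6 and 47.3 CPM with Corin (difference 2.16, SE 0.12), and the Corin level was close to DMSO at 37.2 and 35.4 CPM. NCOR1 was higher with ATRA (-0.46, adjusted p = 0.00115) and RXRA higher with Corin (0.42, adjusted p = 0.00342) in edgeR's test. The NCOR1 call was lost without ATRA replicate 1 (-0.41, adjusted p = 0.0551) and the RXRA call without ATRA replicate 2 (0.40, adjusted p = 0.0616).

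Of 24 genes of retinoid metabolism, binding and response, 14 were tested, 7 were higher with ATRA and 3 with Corin, and the median was -1.15. CD38, a surface enzyme that consumes NAD and a classical ATRA response gene, stood at 403 and 391 CPM with ATRA against 15.5 and 14.03 CPM with Corin (difference -4.74, SE 0.11, adjusted p = 7.26e-13, edgeR). DHRS3, which reduces retinal to retinol, stood at 97.6 and 114 CPM against 7.85 and 5.65 CPM (difference -3.96, SE 0.15). DMSO stood at 13.1 and 11.9 CPM for CD38 and at 3.51 and 2.81 CPM for DHRS3, far closer to Corin than to ATRA. PLAAT4 (-2.76, SE 0.21) and PRAM1 (-1.46, SE 0.12), 2 further genes known to respond to retinoids, were also higher with ATRA. ASB2, an E3 ligase subunit first described as an ATRA-induced gene, went the other way, at 13.1 and 12.04 CPM with ATRA against 24.3 and 21.4 CPM with Corin (difference 0.86, SE 0.12). RDH10, which oxidises retinol, was also higher with Corin (0.87, SE 0.13). DHRS9, a retinol dehydrogenase, was at one level with either agent, 15.9 and 15.0 CPM with ATRA and 15.8 and 14.7 CPM with Corin, against 2.50 and 3.09 CPM with DMSO. Its difference of -0.02 (SE 0.12) was not called and changed sign with the scaling.

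Of 20 genes of CoREST and its recruiters, 17 were tested, 4 were higher with Corin and 3 with ATRA, and the median was 0.11. KDM1A, the demethylase, stood at 162 and 156 CPM with ATRA against 240 and 219 CPM with Corin (difference 0.53, SE 0.09, adjusted p = 0.000311, edgeR), with DMSO at 249 and 267 CPM. HDAC1 stood at 224 and 225 CPM with ATRA against 181 and 158 CPM with Corin (difference -0.40, SE 0.10), and the scaffold RCOR1 at 147 and 133 CPM against 95.4 and 104 CPM (difference -0.49, SE 0.09). The demethylase was thus higher with Corin while a deacetylase and the scaffold were higher with ATRA. HDAC2 (0.11, SE 0.09) and GFI1 (0.20, SE 0.10) were not called, and GFI1 was called higher with Corin in edgeR's test under 4 alternatives (adjusted p between 0.0276 and 0.0476): scaling factors from the 4 libraries, library totals alone, the GC trend removed, and crossed replicate numbers. ZNF217, a zinc finger protein that binds CoREST, stood at 213 and 205 CPM with Corin against 111 and 105 CPM with ATRA and 95.8 and 94.5 CPM with DMSO (difference 0.95, SE 0.09). The other 2 genes higher with Corin were recruiters at low level. SNAI1, a repressor of epithelial genes, stood at 1.81 and 2.15 CPM with Corin against 0.28 and 0.64 CPM with ATRA (difference 2.12, SE 0.38), and INSM1, a neuroendocrine factor, at 0.80 and 0.36 CPM against 0.14 and 0.15 CPM (difference 2.00024, SE 0.59). The INSM1 call was lost without Corin replicate 1 (1.29, adjusted p = 0.192 in edgeR's test) and with DESeq2 (2.01, adjusted p = 0.0866). Of 30 neuronal genes held down by REST, 20 had too few counts to test, 2 of the other 10 were higher with Corin and 3 with ATRA (median -0.15). Of 12 genes often induced by histone deacetylase inhibitors, 11 were tested, 3 were higher with Corin and 4 with ATRA (median 0.01). In that list GSN, an actin-severing protein, was higher with ATRA (-1.48, SE 0.12).

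MYC, the growth-promoting transcription factor, stood at 39.99 and 38.3 CPM with ATRA against 217 and 200 CPM with Corin (difference 2.41, SE 0.09, adjusted p = 1.04e-10, edgeR). The Corin libraries were level with DMSO, at 220 and 208 CPM, and with both agents MYC stood at 4.41 and 4.70 CPM. Its relative MYCL was also higher with Corin (1.77, SE 0.24). Of 20 genes of the MYC network and CDK inhibitors, 19 were tested, 4 were higher with Corin and 7 with ATRA (median -0.09). The cell cycle inhibitors CDKN2C (-0.90, SE 0.10), CDKN1A (-0.89, SE 0.16) and CDKN2D (-0.79, SE 0.14) were higher with ATRA. All 26 proliferation genes were tested, 3 were higher with Corin and 8 with ATRA (median -0.17). CCNE2, a cyclin of the G1 to S transition, stood at 57.1 and 63.2 CPM with ATRA against 23.4 and 23.6 CPM with Corin (difference -1.36, SE 0.10), and RRM2, a subunit of ribonucleotide reductase, had a difference of -0.84 (SE 0.10). The 3 genes higher with Corin were helicase subunits, MCM2 (0.43), MCM3 (0.35) and MCM6 (0.40). The calls of all 3 were lost without ATRA replicate 1, at adjusted p = 0.0745, 0.162 and 0.102 in edgeR's test and differences of 0.38, 0.36 and 0.42. Without ATRA replicate 2 those of MCM3 (0.35) and MCM6 (0.39) were lost as well, at adjusted p = 0.176 and 0.132.

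Replication-dependent histones, which are made in S phase, were higher with ATRA in 14 of 16 tested genes and higher with Corin in 0 (list of 19, of which 18 were in the table, median -0.69). H3C2 stood at 474 and 544 CPM with ATRA against 353 and 272 CPM with Corin (difference -0.70, SE 0.13), and H4C8 at 342 and 407 CPM against 237 and 182 CPM (difference -0.84, SE 0.13). Their DMSO levels, 303 and 290 CPM and 219 and 210 CPM, lay with the Corin libraries. Histone gene copies are near-identical, so single copies are uncertain. Most of these transcripts lack poly(A) tails, and the labels name total RNA. How the library method bears on their levels was not tested.

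Of 30 haematopoietic transcription factors, 25 were tested, 9 were higher with Corin and 11 with ATRA (median -0.19). CEBPE, a factor of late granulocyte maturation, stood at 19.6 and 26.8 CPM with ATRA against 5.29 and 4.83 CPM with Corin (difference -2.19, SE 0.16). CEBPB (-1.44, SE 0.14), which acts in monocytes and emergency granulopoiesis, RUNX2 (-1.18, SE 0.15) and SPI1 (PU.1, the main myeloid factor, -0.60, SE 0.12) were higher with ATRA too. On the other side, IRF8, a factor of the monocyte and dendritic cell lineage, stood at 166 and 145 CPM with Corin against 76.8 and 78.6 CPM with ATRA and 110 and 106 CPM with DMSO (difference 1.00, SE 0.09). KLF4, another monocyte factor, stood at 5.03 and 5.38 CPM against 1.32 and 1.79 CPM (difference 1.74, SE 0.23). The progenitor factors MYB (0.77, SE 0.10), LMO2 (0.94, SE 0.10) and ERG (1.14, SE 0.23) and the immediate early factor EGR1 (1.69, SE 0.39) were higher with Corin. Of 14 stem and progenitor genes, 7 were tested, 1 was higher with Corin and 2 with ATRA (median 0.15). The 1 higher with Corin was the tumour antigen PRAME, known as a repressor of retinoic acid receptor signalling, at 9.20 and 6.98 CPM against 0.77 and 1.52 CPM with ATRA (difference 2.83, SE 0.27).

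Myeloid surface genes were higher with ATRA more often than with Corin. Of 32 integrins and surface receptors, 28 were tested, 16 were higher with ATRA and 6 with Corin (median -0.50). CD36, a scavenger receptor, stood at 282 and 314 CPM with ATRA against 39.999 and 39.0 CPM with Corin (difference -2.91, SE 0.10), and CR1, a complement receptor, at 138 and 125 CPM against 23.4 and 25.1 CPM (difference -2.44, SE 0.10). CSF3R, the receptor for G-CSF, had a difference of -1.997 (SE 0.09) and CD68, a macrophage glycoprotein, one of -1.75 (SE 0.10). ITGAM (CD11b), the usual marker of myeloid differentiation, was far above its DMSO level of 4.82 and 4.58 CPM with either agent. It stood at 99.3 and 108 CPM with ATRA and at 57.6 and 52.2 CPM with Corin (difference -0.92, SE 0.09). TREM2, a lipid-sensing receptor, stood at 2.23 and 2.76 CPM with ATRA and had 0 counts in both Corin libraries, so that its ATRA level was at least 56.5-fold higher against the floor. The reverse held for CD163, the haemoglobin scavenger receptor, at 3.86 and 3.36 CPM with Corin and 0.00 and 0.06 CPM with ATRA, or 126-fold higher (95% counting interval, 34.5 to 1045). CLEC5A, a C-type lectin, stood at 351 and 341 CPM with Corin against 58.8 and 63.9 CPM with ATRA (difference 2.49, SE 0.10), the integrin ITGAD at 22.2 and 23.7 CPM against 4.02 and 3.28 CPM (difference 2.65, SE 0.14) and CSF1R, the receptor for M-CSF, at 10.6 and 9.497 CPM against 5.04 and 5.19 CPM (difference 0.98, SE 0.15).

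Of 8 Fc gamma receptor genes, 6 were tested and all 6 were called, 3 in each direction (median 0.03). FCGRT, the neonatal Fc receptor, stood at 160 and 185 CPM with ATRA against 51.2 and 47.5 CPM with Corin (difference -1.81, SE 0.10), and FCGR1A, the high-affinity receptor CD64, had a difference of -1.08 (SE 0.10). FCGR2B, the inhibitory receptor, stood at 56.3 and 50.5 CPM with Corin against 9.62 and 9.40 CPM with ATRA (difference 2.49, SE 0.11), with DMSO at 14.1 and 14.9 CPM. FCGR2B and FCGR2C (1.92, SE 0.15) are near-identical copies, as are FCGR1A and FCGR1BP, and reads may have been split between them. Of 12 leukocyte immunoglobulin-like receptors, 9 were tested, 5 were higher with ATRA and 2 with Corin (median -0.44). LILRA5 stood at 38.9 and 44.5 CPM with ATRA against 8.94 and 7.57 CPM with Corin (difference -2.33, SE 0.12) and LILRA6 at 1.35 and 0.85 CPM against 5.45 and 4.54 CPM (difference 2.17, SE 0.26). These receptors are also close relatives in one gene cluster.

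Granule genes were mixed. Of 20, 17 were tested, 9 were higher with ATRA and 6 with Corin (median -0.56). BPI, which kills Gram-negative bacteria, stood at 6.97 and 6.61 CPM with ATRA against 0.61 and 0.82 CPM with Corin (difference -3.26, SE 0.24). The serine proteases ELANE (-1.38, SE 0.13) and PRTN3 (-1.30, SE 0.10) and CFD, complement factor D (-2.22, SE 0.15), were higher with ATRA, and the defensin DEFA4 had 0 counts with Corin and 0.94 and 1.82 CPM with ATRA, a level at least 30.9-fold higher. Beside LYZ, CST7, an inhibitor of lysosomal proteases (1.41, SE 0.11), RNASE2 (1.12, SE 0.11) and MMP8, a neutrophil collagenase (3.69, SE 0.56), were higher with Corin. MMP9 had 2 counts over the ATRA group and was 37.5-fold higher with Corin (95% counting interval, 10.03 to 316). Of 11 S100 and annexin genes, 10 were tested, 2 were higher with Corin and 4 with ATRA (median -0.19). ANXA2, a membrane-binding protein, stood at 1202 and 1026 CPM with Corin against 211 and 215 CPM with ATRA (difference 2.39, SE 0.12), while ANXA1 was higher with ATRA (-0.75, SE 0.09).

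The phagocyte NADPH oxidase, the enzyme of the oxidative burst, was higher with ATRA in 6 of 7 genes, with a median of -1.24. CYBB, its catalytic subunit, stood at 218 and 220 CPM with ATRA against 77.5 and 68.3 CPM with Corin (difference -1.59, SE 0.09, adjusted p = 9.11e-09, edgeR), and CYBA, the partner in the membrane, at 45.2 and 57.7 CPM against 24.3 and 19.3 CPM (difference -1.24, SE 0.14). Both agents stood above DMSO for CYBB, at 17.4 and 18.2 CPM, whereas for CYBA the Corin libraries were near DMSO, at 21.5 and 15.7 CPM. The cytosolic subunits NCF1 (-1.70, SE 0.14) and NCF4 (-0.65, SE 0.10) and the GTPase RAC2 (-0.49, SE 0.10) followed, and RAC1, which many cell types use, was not called (-0.19, SE 0.09), although it was without Corin replicate 1 (-0.25, adjusted p = 0.0289, edgeR) and with the GC trend removed (-0.21, adjusted p = 0.0449). NCF1 has near-identical pseudogenes and is uncertain.

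**Figure D4:**
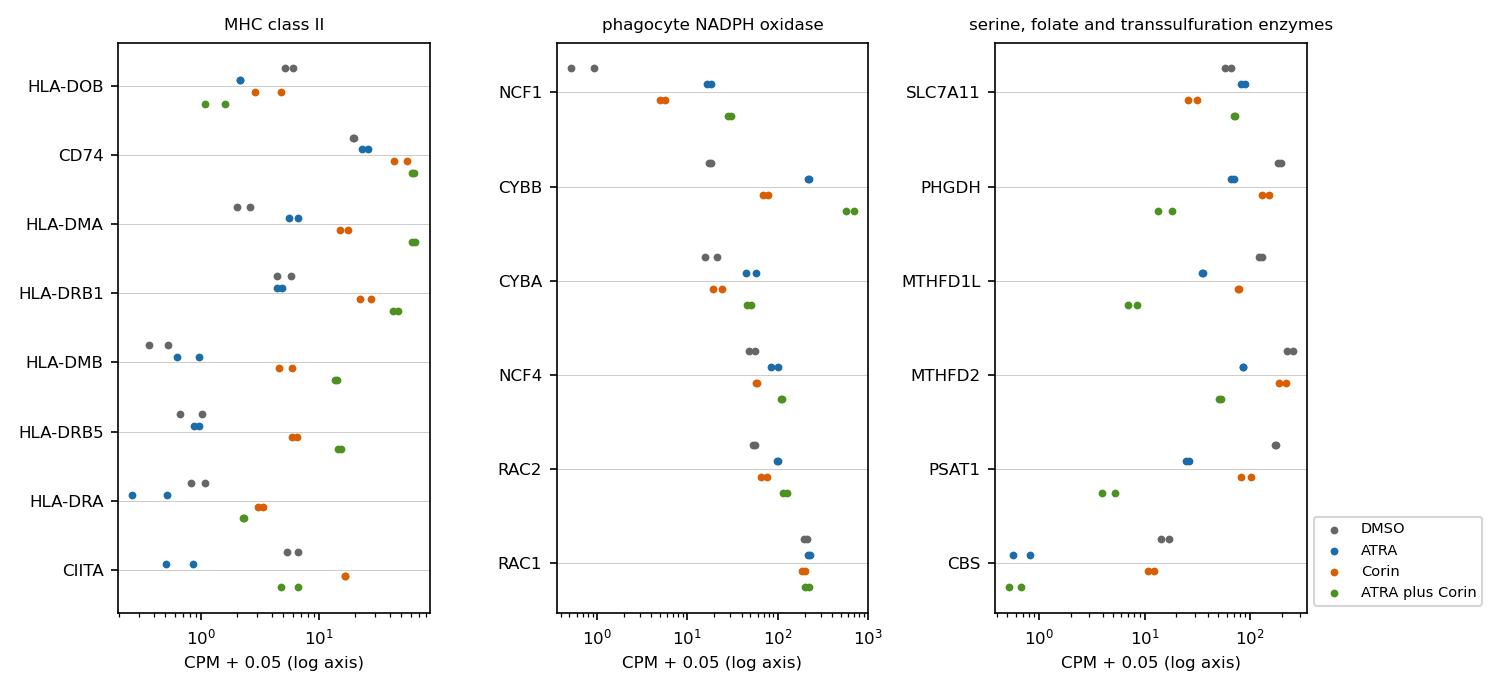
Level of the genes named in the text from 3 lists in each of the 8 U-937 libraries (x axes, CPM + 0.05 on log axes), 1 point per library, coloured by treatment. All 8 MHC class II genes have both Corin points to the right of both ATRA points, CYBB, CYBA, NCF1, NCF4 and RAC2 have the reverse at a called difference, and PSAT1 and CBS have ATRA points far to the left of DMSO and Corin.

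MHC class II genes, which present antigen to helper T cells, were the list with the highest median. All 8 tested genes of 13 were higher with Corin and 0 higher with ATRA, with a median of 2.63. CIITA, given above, leads them, and HLA-DRA stood at 3.32 and 3.002 CPM with Corin against 0.47 and 0.21 CPM with ATRA (difference 3.19, SE 0.35, adjusted p = 4.41e-06, edgeR). HLA-DRB1 stood at 27.6 and 22.3 CPM against 4.35 and 4.85 CPM (difference 2.44, SE 0.14), with DMSO at 5.70 and 4.38 CPM. HLA-DMB (2.81, SE 0.27) and HLA-DMA (1.43, SE 0.15), which load peptides, and CD74, the invariant chain (1.02, SE 0.12), were higher with Corin as well. CIITA and HLA-DRB1 did not keep one order across treatments: with both agents HLA-DRB1 stood at 42.6 and 46.8 CPM, above Corin, and CIITA at 6.56 and 4.67 CPM, below Corin. HLA-DRB1 and HLA-DRB5 (2.82, SE 0.23) are close copies and highly variable between people, so their shares are uncertain. The other 5 genes, among them those of the DP and DQ molecules, had too few counts to test.

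Promoters of 3 of these genes are shown because members of the class are known to share a promoter layout, an X box followed by a Y box, that CIITA acts through. The 3 are the genes of this list higher with Corin by at least 1 that hold the first sequence below, so their matches to it are no independent result. RefSeq's promoters (GRCh38.p14, minus strand, chr6:32953098-32953347, chr6:32941029-32941278 and chr6:32589849-32590098) are printed with CTGATGATG (within the X box) and CTGATTGG (the Y box) in capitals.
HLA-DMA: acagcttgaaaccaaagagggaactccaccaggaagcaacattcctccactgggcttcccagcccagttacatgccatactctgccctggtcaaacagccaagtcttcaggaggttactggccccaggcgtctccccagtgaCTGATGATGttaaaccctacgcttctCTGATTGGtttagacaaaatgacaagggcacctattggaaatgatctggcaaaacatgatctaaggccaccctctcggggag
HLA-DMB: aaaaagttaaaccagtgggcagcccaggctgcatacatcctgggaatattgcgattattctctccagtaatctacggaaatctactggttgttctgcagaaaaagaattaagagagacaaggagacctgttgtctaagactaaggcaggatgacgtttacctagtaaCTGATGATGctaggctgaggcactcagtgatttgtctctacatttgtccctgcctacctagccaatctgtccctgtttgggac
HLA-DRB1: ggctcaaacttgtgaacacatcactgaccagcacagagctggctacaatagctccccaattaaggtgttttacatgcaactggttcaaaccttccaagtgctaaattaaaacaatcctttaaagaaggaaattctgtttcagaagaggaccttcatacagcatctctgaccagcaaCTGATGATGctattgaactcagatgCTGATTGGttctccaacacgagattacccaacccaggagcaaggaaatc
CTGATGATG began 108, 83 and 74 bases before the start in these 3 promoters, and CTGATTGG, present in the first and the last, 82 and 49 bases before it. On both strands, CTGATGATG was found in 0.22% of all 27305 promoters, in 4 of 675 matched to genes higher with Corin by at least 1 (these 3 and RAB3B) and in 1 of 564 matched to genes higher with ATRA by at least 1. CTGATTGG was found in 3.98% of all promoters, in 5.11% of the 10331 promoters of tested genes, in 35 of the first set (5.19%) and in 17 of the second (3.01%). In this window HLA-DRB5 held CTGATTGG alone, HLA-DOB held CTGATGATG alone and CD74 held neither sequence. For HLA-DRA and CIITA no promoter was available to search.

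MHC class I and interferon-stimulated genes went the opposite way. Of 15 genes of class I and peptide loading, all tested, 10 were higher with ATRA and 1 with Corin (median -0.60). HLA-C stood at 154 and 171 CPM with ATRA against 104 and 91.4 CPM with Corin (difference -0.73, SE 0.10). The immunoproteasome subunit PSMB10 (-1.57, SE 0.15) and the trimming peptidases ERAP1 (-1.20, SE 0.09) and ERAP2 (-1.14, SE 0.13) had the largest differences. Reads of HLA-C can be shared with related class I genes, which makes its level uncertain. Of 36 interferon-stimulated genes, 33 were tested, 19 were higher with ATRA and 5 with Corin (median -0.58). OAS1, which senses double-stranded RNA and carries the name of an overlapping clone in the deposited table, stood at 85.1 and 80.1 CPM with ATRA against 8.72 and 7.70 CPM with Corin and 1.16 and 1.32 CPM with DMSO (difference -3.33, SE 0.11). IRF1, a transcription factor of the interferon response, stood at 106 and 111 CPM with ATRA against 19.5 and 19.9 CPM with Corin (difference -2.46, SE 0.10). OAS3 (-1.83, SE 0.09), IRF7 (-1.85, SE 0.27) and STAT2 (-0.91, SE 0.09) were also higher with ATRA. The genes higher with Corin included HERC5, the ligase for ISG15 (0.67, SE 0.10), and BST2, tetherin (0.56, SE 0.11).

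Cytokine and chemokine genes were called in both directions. Of 30, 22 were tested, 8 were higher with Corin and 7 with ATRA (median 0.07). Beside CCL2, IL1RN, the interleukin-1 receptor antagonist, stood at 13.5 and 12.3 CPM with Corin against 0.66 and 0.97 CPM with ATRA (difference 3.98, SE 0.21), and CXCL8, the neutrophil chemokine, at 8.88 and 10.8 CPM against 0.74 and 1.55 CPM (difference 3.11, SE 0.27). The DMSO libraries stood between the agents for both genes, at 2.94 and 3.19 CPM for IL1RN and 2.44 and 3.83 CPM for CXCL8. CCR7, which guides cells to lymph nodes, had 0 counts in both ATRA libraries and 0.72 and 0.59 CPM with Corin, at least 15.2-fold higher. The monocyte chemokine receptors were divided, with CCR2 higher with Corin (1.81, SE 0.14) and CCR1 higher with ATRA (-1.64, SE 0.10). CCL23 (-2.09, SE 0.17), CXCR2 (-1.53, SE 0.13) and the inflammasome genes CASP1 (-1.11, SE 0.12) and NLRP3 (-0.88, SE 0.10) were higher with ATRA, whereas the DNA sensor AIM2 was higher with Corin (2.85, SE 0.32). Of 17 Toll-like receptors and partners, 15 were tested, 3 were higher with Corin and 4 with ATRA (median -0.04), with TLR4, the receptor for endotoxin, at -0.98 (SE 0.09) and TLR8 at 2.04 (SE 0.35).

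Enzymes that make serine, one-carbon units and cysteine were mostly higher with Corin. All 16 were tested, 10 were higher with Corin and 3 with ATRA (median 0.72). CBS, which starts the conversion of homocysteine to cysteine, stood at 12.2 and 10.8 CPM with Corin against 0.77 and 0.52 CPM with ATRA (difference 4.14, SE 0.22, adjusted p = 2.92e-09, edgeR), with DMSO at 16.99 and 14.3 CPM. PSAT1, of serine synthesis, stood at 103 and 82.4 CPM against 26.1 and 24.9 CPM (difference 1.86, SE 0.11), with DMSO at 173 and 177 CPM. For both genes DMSO stood above both agents and ATRA was lowest. The mitochondrial folate enzymes MTHFD2 (1.25, SE 0.10) and MTHFD1L (1.14, SE 0.09) and PHGDH, the first enzyme of serine synthesis (1.03, SE 0.10), were higher with Corin. SLC7A11, which imports cystine, went the other way, at 81.5 and 89.4 CPM with ATRA against 31.3 and 25.8 CPM with Corin (difference -1.58, SE 0.11).

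Lysosomal genes were higher with ATRA in 16 of 25 tested (list of 27) and higher with Corin in 3 (median -0.45). Beside CTSD, PSAP, the precursor of the saposins, stood at 706 and 737 CPM with ATRA against 297 and 245 CPM with Corin (difference -1.41, SE 0.11). GUSB (-1.48, SE 0.09), GRN, progranulin (-1.22, SE 0.11), and NPC2 (-1.11, SE 0.10) were also higher with ATRA. NPC1, which passes cholesterol out of the lysosome together with NPC2, was higher with Corin, at 341 and 352 CPM against 156 and 149 CPM with ATRA (difference 1.18, SE 0.09). Of 24 genes of cholesterol synthesis, uptake and efflux, 21 were tested, 2 were higher with Corin and 7 with ATRA (median -0.02). NR1H3, the sterol receptor LXR alpha, stood at 22.05 and 25.5 CPM with ATRA against 4.68 and 4.11 CPM with Corin (difference -2.43, SE 0.14), and its target ABCA1, a cholesterol exporter, had a difference of -1.43 (SE 0.34). Of 16 genes of the BCL2 family, 15 were tested and 3 were called in each direction (median 0.03). BCL2, which blocks apoptosis, stood at 91.0 and 103 CPM with Corin against 41.9 and 41.4 CPM with ATRA and 102 and 115 CPM with DMSO (difference 1.22, SE 0.10), while the pro-apoptotic BMF was higher with ATRA (-1.55, SE 0.11) and the pro-apoptotic HRK, at low level, higher with Corin (3.02, SE 0.46).

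The same contrast was measured in SKNO-1, which was grown with added GM-CSF, and the difference between the lines was tested in 1 model of the 8 single-agent libraries. Of 18889 genes tested, 7433 (39.4%) had a Corin minus ATRA difference that was not the same in both lines by edgeR's test, 3683 with the higher value in U-937 and 3750 with the lower. In SKNO-1 the contrast leaned to Corin in this model, with 8740 of these genes called (46.3%). Of them, 2483 were higher with Corin by at least 1 (13.1% of those tested) and 407 higher with ATRA by at least 1 (2.15%). The U-937 counts given above, 1179 and 986, or 1296 and 831 with library totals alone, came from the separate fit of 4 libraries. That fit tested 16807 genes and left fewer residual degrees of freedom, so the counts of the lines are not like for like.

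Several of the U-937 differences did not differ detectably between the lines. For VCAN the difference was 5.19 in U-937 and 5.66 in SKNO-1 (U-937 minus SKNO-1 -0.46, SE 0.27, adjusted p = 0.197), for LYZ 2.96 and 2.79 (0.17, SE 0.12, adjusted p = 0.282) and for HIC1 -7.47 and -6.88 (-0.59, SE 0.54, adjusted p = 0.463). A p above the threshold does not show that the lines act alike. RARB and GZMA, each with 0 counts under 1 agent in both lines, moved to the same side in both, RARB at 0.55 and 0.66 CPM with ATRA in SKNO-1 and GZMA at 7.54 and 8.16 CPM with Corin. DAAM2 and CYP4F3 had 0 counts in SKNO-1 with either agent.

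Other genes took opposite sides. CCL2 was higher with Corin in U-937 (5.66) and stood at 0.49 and 0.50 CPM with ATRA and 0.36 and 0.09 CPM with Corin in SKNO-1 (difference between lines 6.76, SE 0.48, adjusted p = 2.27e-08, edgeR). CD180, a Toll-like receptor relative of B cells and monocytes, stood in U-937 at 37.1 and 35.5 CPM with Corin against 2.85 and 3.64 CPM with ATRA and in SKNO-1 at 4.99 and 5.80 CPM against 52.5 and 53.7 CPM (difference between lines 6.79, SE 0.16, adjusted p = 2.12e-13). The CD180 order was thus inverted between the lines in all 8 libraries. MS4A4A, a tetraspan protein of macrophages, was the converse, at 137 and 138 CPM with ATRA against 51.1 and 38.7 CPM with Corin in U-937 and 0.09 and 0.06 CPM against 18.4 and 16.7 CPM in SKNO-1 (difference between lines -9.46, SE 0.30). Of 30 tested myeloid integrins and surface receptors 20 differed between the lines, with a median of -0.38 in U-937 and 1.80 in SKNO-1, and of 9 leukocyte immunoglobulin-like receptors 7 differed, with medians of -0.42 and 3.91. Several of the latter had few counts in SKNO-1, so the size of that median is uncertain. LILRB2, whose value is the median, had 2 counts with ATRA and 32 with Corin, LILRA6 0 and 6, and LILRB3 0 and 5. LILRB4 had 0 with either agent. LILRA2 had more, 46 and 851, and LAIR1 was higher with ATRA in SKNO-1 (-1.16). Interferon-stimulated genes had medians of -0.52 and 0.64, and 26 of 34 differed. MHC class II genes were on the Corin side in both lines, with medians of 2.65 and 2.16, and 4 of 10 differed. The serine, folate and transsulfuration enzymes were higher with Corin in U-937 (median 0.75) and had a median of -0.18 in SKNO-1, with 12 of 16 called between the lines.

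**Figure D5:**
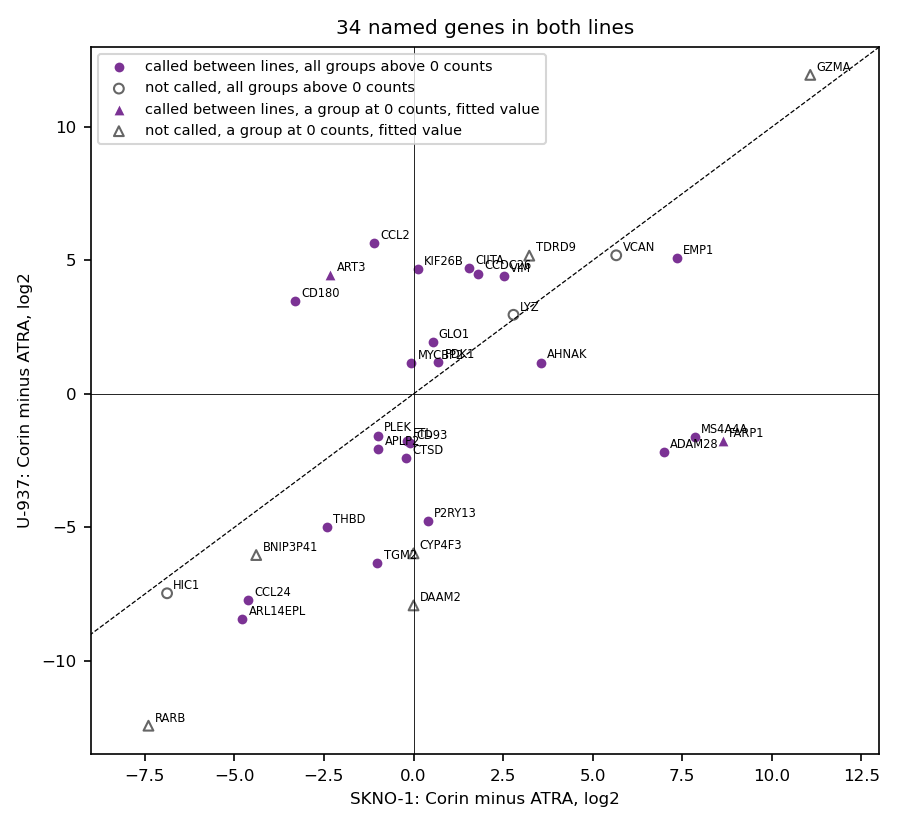
Log2 difference, Corin minus ATRA, in SKNO-1 (x axis) and in U-937 (y axis) for the 34 named genes; the dashed line marks equal values. Filled symbols were called different between lines, and triangles mark genes with a group at 0 counts, whose fitted values are no bounds; CD180, CCL2, MS4A4A and ADAM28 lie in opposite quadrants.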

How the data were processed

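Total RNA of 16 libraries was sequenced from a stranded kit, per the labels' protocols. The authors' gene tables hold RSEM estimated counts (expected counts) and TPM, per the file headers; Trimmomatic, STAR, RSEM, DESeq2 and hg38 are named without versions in the submitters' processing notes, and the annotation release and strand setting of the counting are not given in the sources used here. File names carry a single-end mark while the labels say paired-end reads, which was not resolved. RSEM divides reads that fit several copies, so paralogs and pseudogenes are uncertain, as are overlapping genes. The table held 0 spike-in entries, so RNA per cell was not measured. The authors' 6 tables of their own comparisons were not used here. Gene positions came from GENCODE 44 by identifier (60261 of 60603), and promoters from RefSeq by symbol (10331 of 16768 tested symbols).

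From the deposited estimated counts, rounded to whole numbers, R 4.3.3 and edgeR 4.0.16 fitted the 4 libraries (filterByExpr, TMM factors from all 8 U-937 libraries, glmQLFit with robust = TRUE, glmQLFTest, Benjamini-Hochberg over all genes, called below 0.05). The fit left 2 residual degrees of freedom and a common biological coefficient of variation of 0.0896. Between lines, the interaction was fitted to 8 libraries, with 4 residual degrees of freedom. The scripts were tested on simulated data. Levels are CPM, scaled by TMM; TPM was used for no result. The sign is Corin minus ATRA, and the SE is the difference divided by the square root of its F value. With a group at 0 counts, a fold is a lower bound against 3 counts over the group; with 1 to 3 counts, a ratio has an exact 95% interval. Bounds and intervals cover counting error only.

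Genes named by size were the 10 largest called differences in each direction (gene symbol given, average over the 4 libraries 5 CPM or more, agents not overlapping); the 5 most abundant protein-coding genes per direction with a difference of at least 1; from each list up to 4 called members per direction, with any member of the retinoid, CoREST and transcription factor lists; and, between lines, the 3 largest per direction. Chosen beyond that rule, after their values were seen, were CSF3R, CD68, ITGAM, CSF1R, PRTN3, RNASE2, NCF4, RAC2, RAC1, HLA-DRB1, HLA-DMA, CD74, HLA-C, STAT2, CASP1, NLRP3, AIM2, CCR2, PHGDH, NPC2 and H3C2. The groups compared, the lists, the motifs and the rule were chosen with earlier results of these data known, so no list was tested. A few list members are counted in the lists but not reported here by name. Alternatives were another scaling (TMM over 4 libraries, median-of-ratios factors, library totals), DESeq2 1.42.0, no filter on low counts, all libraries in the fit, a replicate block, removal of a GC trend, and leaving out each library. Replicate numbers were not taken to pair the libraries, since nothing in the labels ties them, and whether they do is not known.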

Additional observations from a re-analysis of the deposited data

Results flagged for a closer look

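The Corin minus ATRA difference was not the same in U-937 and SKNO-1 for 7433 genes, by edgeR's test of the difference between lines. Values below are the U-937 difference minus the SKNO-1 difference on the log2 scale. The 3 largest positive values were those of CD180 (6.79), ART3 (6.78) and CCL2 (6.76), and the 3 largest negative ones those of FARP1 (-10.4), MS4A4A (-9.46) and ADAM28 (-9.18). ART3 had 1 count over the 4 SKNO-1 libraries and FARP1 had 0 counts with ATRA in SKNO-1, so both values depend on the fit's prior count. The ART3 call was lost without SKNO-1 ATRA replicate 2 (adjusted p = 1.00 in edgeR's test, at 4.46) and without SKNO-1 Corin replicate 1 (6.79) or replicate 2 (6.79), at adjusted p = 0.0827 and 0.0796. It was lost as well with the replicate block within each line (6.72, adjusted p = 0.0782) and with no filter on low counts (6.78, adjusted p = 0.0532).

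Among the genes named for their difference in U-937, the value was positive for KIF26B (4.56), CIITA (3.17), CCDC26 (2.70), VIM (1.88), GLO1 (1.41), MYCBP2 (1.21) and PDK1 (0.51). It was negative for TGM2 (-5.34), P2RY13 (-5.15), ARL14EPL (-3.66), CCL24 (-3.11), THBD (-2.55), AHNAK (-2.38), EMP1 (-2.25), CTSD (-2.18), CD93 (-1.74), FTL (-1.57), APLP2 (-1.10) and PLEK (-0.56). AHNAK and EMP1 were higher with Corin in both lines, by more in SKNO-1. CTSD stood at 24.5 and 28.7 CPM with ATRA in SKNO-1 and CD93 at 15.1 and 13.7 CPM, far below U-937.

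By list, the number of members whose difference differed between lines was 26 of 34 interferon-stimulated genes, 20 of 30 myeloid surface receptors, 19 of 26 proliferation genes, 19 of 26 lysosomal genes, 18 of 23 cholesterol genes, 12 of 24 cytokine genes and 12 of 16 serine and folate enzymes. It was 10 of 28 transcription factors, 10 of 15 MHC class I genes, 10 of 15 BCL2 family genes, 9 of 18 granule genes, 8 of 11 S100 and annexin genes, 8 of 17 Toll-like receptors and partners, 7 of 18 CoREST genes, 7 of 9 leukocyte immunoglobulin-like receptors, 7 of 19 genes of the MYC network and 7 of 11 genes induced by deacetylase inhibitors. It was 6 of 7 Fc gamma receptors, 5 of 17 retinoid metabolism genes, 5 of 15 neuronal genes, 5 of 12 stem and progenitor genes, 4 of 7 oxidase genes, 4 of 10 MHC class II genes, 3 of 17 histones and 2 of 11 retinoid receptors and corepressors, beside 39.4% of all genes.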

How the results depend on the processing

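Every one of the 30 genes named for size or abundance was called in the same direction under every alternative. The count of 7232 genes was 6075 with DESeq2, 7087 with library totals alone and 7584 with no filter on low counts, and 5142 to 6723 when 1 library was left out; the lone library of that agent is then assumed to vary like the others. Genes higher with Corin numbered 2632 to 3527 and genes higher with ATRA 2510 to 3480 when 1 library was left out, and by at least 1, 1054 to 1180 and 923 to 944. List members called were 218 to 270 of 400 genes without 1 library, against 265. Between lines the count of 7433 was 6185 to 7912 without 1 library and 5957 to 7740 otherwise. With the replicate block, 6499 genes were called within U-937 and 6348 between lines. Same-numbered libraries of the 2 agents deviated in opposite directions (r = -0.318 across 9590 genes), and crossing the numbers, chosen after seeing the data, gave 8538 calls. Of 225 single-gene results, 179 kept direction and side of the threshold throughout. DHRS9, not called, changed sign to 0.0064 with TMM over 4 libraries and 0.056 with library totals, and lay between -0.0773 and 0.030 without 1 library; RARA, not called, lay between -0.204 and 0.018 without 1 library. The cause was not tested. Depth limits genes such as CD163 and MMP9, with 2 counts over the ATRA group.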

Other observations

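Both DMSO libraries lay between the agents for 511 of the 1179 genes higher with Corin by at least 1 and for 243 of the 986 higher with ATRA by at least 1. Of the 1179, 21 had the DMSO mean at least 2-fold below Corin and at least 2-fold above ATRA on the scale of log2(CPM + 0.5), and of the 986, 0 had the reverse. PRDX1, a peroxidase that removes hydrogen peroxide, was the most abundant, at 1000 and 832 CPM with Corin, 426 and 475 CPM with DMSO and 102 and 104 CPM with ATRA (difference 3.15, SE 0.12, adjusted p = 9.56e-11, edgeR's quasi-likelihood test). SLC1A3, a glutamate transporter, stood at 96.2 and 89.6 CPM with Corin, 41.0 and 46.2 CPM with DMSO and 10.7 and 9.62 CPM with ATRA. The adhesion protein CD48 stood at 16.7 and 13.9, 5.32 and 5.49, and 1.10 and 0.73 CPM in the same order. METTL9 (2.79, SE 0.10) and EMILIN2 (2.38, SE 0.09) had the same order, and so had CLEC5A and MGAM (2.70, SE 0.18), which overlap on opposite strands and may share reads. These genes were chosen after their values were seen.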
